A study of Mus musculus with 14 samples.

Results

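Carboxylesterases are serine hydrolases that split ester bonds in drugs, xenobiotics and lipids. The mouse Ces1, Ces2 and Ces3 subfamilies were examined in liver through 10 genes chosen by symbol (Ces1c, Ces1d, Ces1e, Ces1f, Ces1g, Ces2a, Ces2c, Ces2e, Ces3a and Ces3b). Of these, 9 had a probe set annotated with exactly that symbol, out of 22180 genes in all, and each of the 9 had 1 such probe set. Ces2c was not analysed here. The 10 genes were listed with earlier results of these data known.

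Hepatic tissue came from male C57Bl/6J mice that were 6 weeks old when a high-fat diet (HFD, 60%) began, and that ate it for 4 weeks to become obese and for 4 more weeks in 3 groups. The canagliflozin group received the drug with the diet, at 30 mg/kg in the sample labels and 25 to 30 mg/kg in the treatment protocol (n = 5 arrays). The caloric restriction group was matched in weight to the drug group by a 15 to 30% cut in calories (n = 5). The HFD control group stayed on the diet (n = 4). Canagliflozin blocks SGLT2, the transporter that returns filtered glucose to the blood in the kidney. The labels do not tie each array to a mouse, so the p values measure the spread between arrays. Body weights were not among the values used here.

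Carboxylesterases are among the major hydrolases of hepatocyte endoplasmic reticulum. Several of the Ces1 enzymes release fatty acids from stored triglyceride, which hepatocytes can re-esterify and secrete in very low density lipoprotein (VLDL), and Ces2 enzymes hydrolyse acylglycerols and ester drugs. In the mouse their genes are known to respond to the nuclear receptors CAR and PXR. The RefSeq gene table places the family on chromosome 8 in 2 blocks of neighbouring genes, one of 9 genes that holds Ces1a to Ces1h and Ces5a, and one of 10 that holds the Ces2, Ces3 and Ces4a genes.

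Values are log2 probe-set intensities, in which 1 unit is a doubling. Array medians lay between 4.07 and 4.13, and any pair of arrays correlated between 0.986 and 0.992 over genes. All 8 measured hepatocyte markers lay above the array medians on every array, among them Alb, the albumin gene, at 13.91 to 14.09, and Ass1, a urea cycle enzyme gene, at 6.24 to 7.22. Ass1 averaged 7.03 under canagliflozin and 6.55 in HFD controls, a log2 fold change of 0.48 ± 0.15 (SE, limma adjusted p = 0.596). Differences were tested with limma over all genes, with p adjusted by the Benjamini-Hochberg method and a threshold of 0.05. In bulk tissue, fewer cells of a type and less RNA per cell cannot be told apart.

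Against weight-matched restriction, all 9 carboxylesterases had lower means under canagliflozin, where 51.0% of all genes did, and Ces1g and Ces2a had the largest differences relative to their error. The median log2 fold change of the 9 was -0.24, against 0 over all genes. None passed the adjusted threshold, which 0.00451% of all genes did (1 of 22180), and 2 had an unadjusted p under 0.05 with a lower mean, where 2.98% of all genes did (6.05% in either direction). Without canagliflozin replicate 3, 16 genes passed, none of them among the 9. Of 9 further carboxylesterase genes outside the members, 1 had a higher and 8 lower means in this comparison.

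Ces1g encodes an esterase of the endoplasmic reticulum whose loss in mice raises liver and plasma lipids. It measured 8.55, 8.74, 9.44, 8.85 and 9.14 under canagliflozin, 10.01, 9.61, 9.22, 9.96 and 9.80 under caloric restriction and 8.67, 9.28, 9.78 and 9.80 in HFD controls. In 4 of 5 drug-treated arrays Ces1g lay below every restricted array, and canagliflozin replicate 3 overlapped the lowest of them. The groups averaged 8.94 ± 0.35 under canagliflozin (SD, n = 5), 9.72 ± 0.32 under caloric restriction (n = 5) and 9.38 ± 0.53 in HFD controls (n = 4). Ces1g was 1.72-fold lower under canagliflozin than under restriction, a log2 fold change of -0.78 ± 0.21 (SE, 95% interval -1.22 to -0.33, limma adjusted p = 0.662). The HFD controls stood between the treated groups and overlapped both. Without canagliflozin replicate 3 the log2 fold change against restriction was -0.90, with a limma adjusted p of 0.214, the smallest for any carboxylesterase under the settings tried. The adjusted p of Ces1g over those settings ranged up to 0.822.

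Ces2a encodes an acylglycerol and drug hydrolase of liver and intestine. It measured 9.52, 9.61, 9.58, 9.16 and 9.39 under canagliflozin, 9.70, 9.86, 9.74, 9.81 and 9.75 under caloric restriction and 9.50, 9.67, 9.28 and 9.80 in HFD controls. All 5 drug-treated arrays lay below all 5 restricted arrays, which held for 0.491% of all genes in that direction. Ces2a averaged 9.45 ± 0.18 under canagliflozin and 9.77 ± 0.06 under restriction (SD, n = 5 each). The log2 fold change between them was -0.32 ± 0.11 (SE, 1.24-fold lower under the drug, limma adjusted p = 0.709). HFD controls averaged 9.56 ± 0.22 (n = 4) and overlapped both treated groups.

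**Figure D1:**
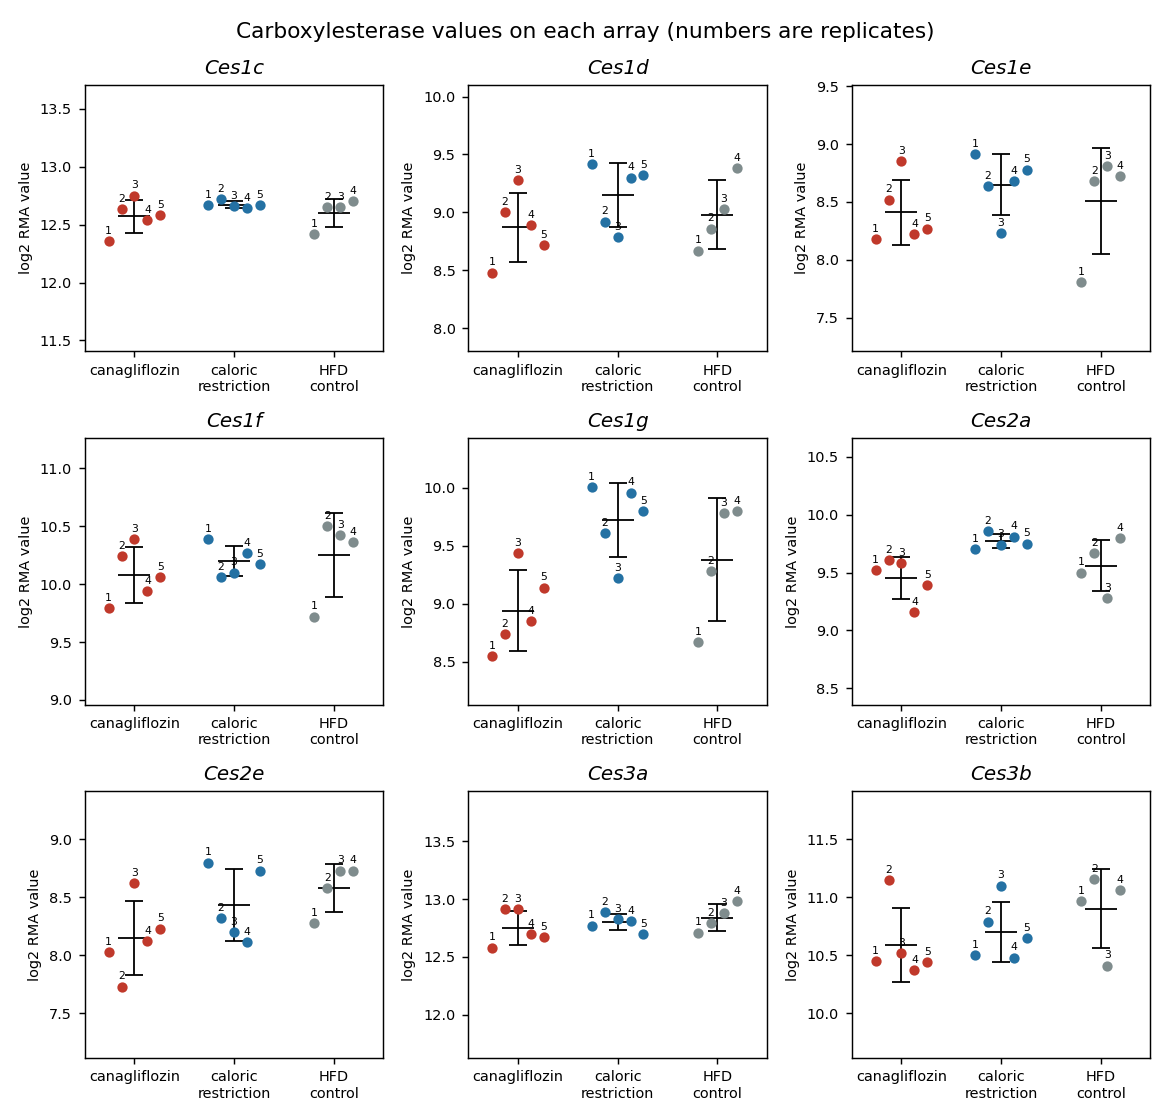
Log2 value of each carboxylesterase on each array (points, numbered by replicate) in the canagliflozin, caloric restriction and HFD control groups, with the mean and SD as bars. Every panel spans the same log2 range. Ces2a under canagliflozin reached at most 9.61 and lay below every restricted array, and Ces1e in HFD control replicate 1 (7.81) lay far below the rest of its group.

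The other 7 genes differed less between canagliflozin and restriction. Ces2e, a triglyceride hydrolase described in mouse intestine and liver, had a log2 fold change of -0.29 ± 0.16 (SE). Ces1d, the triacylglycerol hydrolase that supplies lipid for VLDL, differed by -0.28 ± 0.16, and Ces1e, which encodes egasyn, the protein that holds β-glucuronidase in the endoplasmic reticulum, by -0.24 ± 0.18. Ces1c, Ces1f, Ces3a and Ces3b lay between -0.12 and -0.05. The adjusted p of these 7 genes ranged from 0.835 to 0.953.

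Over the same arrays the macrophage markers had the opposite sign. All 9 of 9 had higher means under canagliflozin than under restriction, where 51.0% of all genes had lower ones. The median log2 fold change of these markers was 0.22, although 0 passed the threshold. No other marker list had a single sign throughout in this comparison, with 3 of 8 endothelial and 6 of 9 stellate markers higher. Against HFD controls, 8 of 9 macrophage markers had higher means under canagliflozin and 2 of 9 under restriction. The mean log2 level of the macrophage markers per array spanned 6.67 to 7.19 under canagliflozin, 6.13 to 6.99 under restriction and 6.24 to 7.25 in HFD controls. The 8 measured hepatocyte markers spanned 11.51 to 11.60 under canagliflozin, 11.53 to 11.63 under restriction and 11.48 to 11.55 in HFD controls. The part of other cells in the carboxylesterase differences was not tested. Ces1d and Ces1f are also known from fat and Ces2 genes from intestine. The adipocyte genes Adipoq and Lep measured at most 3.47 and 3.46, under the array medians. Other adipocyte markers lay near or above the medians, with Retn at 4.19 to 4.67, Plin1 at 4.12 to 4.81 and Cidec, a lipid droplet gene, at 4.88 to 6.76. Cidec averaged 6.03 under canagliflozin, 5.69 under restriction and 5.45 in HFD controls, log2 fold changes of 0.58 ± 0.37 (SE) for canagliflozin against HFD controls and 0.35 ± 0.35 against restriction. The intestinal genes Vil1 and Sis measured at most 3.99 and 3.15, whereas Alpi, Cdx2 and Lct reached 4.52, 4.31 and 4.18. The 7 measured adipocyte markers averaged 3.99 to 4.31 per array under canagliflozin, 4.02 to 4.25 under restriction and 4.05 to 4.25 in HFD controls. The 6 intestinal markers averaged 4.49 to 4.63, 4.47 to 4.80 and 4.51 to 4.72 in the same groups, with Fabp2, also known from liver, between 8.82 and 10.16. No marker value was at 0.

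Against HFD controls, canagliflozin again gave lower means for all 9 carboxylesterases, where 50.3% of all genes had lower means. The median log2 fold change of the 9 was -0.11. None passed the threshold, which 0% of all genes did, and 1 had an unadjusted p under 0.05 with a lower mean, where 3.30% of all genes did (6.51% in either direction). No member lay wholly below its controls, as 0.965% of all genes did. Without canagliflozin replicate 3, 12 genes passed, none of them among the 9. This comparison and the previous one share the drug-treated arrays, so the shared sign is no independent observation. Nor are the 9 genes separate observations within either comparison, since pairs of Ces1 members correlated at 0.69 to 0.90 within groups. The count of lower means was 8 of 9 when canagliflozin replicate 1, HFD control replicate 3 or HFD control replicate 4 was left out. Of 9 further carboxylesterase genes outside the members, 4 had higher and 5 lower means in this comparison.

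Ces2e was the gene with the unadjusted p under 0.05. It measured 8.03, 7.73, 8.62, 8.12 and 8.23 under canagliflozin, 8.80, 8.32, 8.20, 8.11 and 8.73 under caloric restriction and 8.28, 8.58, 8.73 and 8.73 in HFD controls. In 4 of 5 drug-treated arrays it lay below every control, and replicate 3 was the exception. The log2 fold change was -0.43 ± 0.17 (SE, 1.35-fold lower, 95% interval -0.79 to -0.07, limma adjusted p = 0.711). Restricted arrays overlapped the controls, with 2 of 5 below all of them and 2 of 5 above, 1 of these by less than the rounding.

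Ces1g differed from controls by -0.44 ± 0.22 (SE, adjusted p = 0.789) and by -0.68 without HFD control replicate 1, with 1 of 5 drug-treated arrays below every control. Ces3b, which encodes a hepatic carboxylesterase, differed by -0.32 ± 0.18 (adjusted p = 0.801). Ces3b measured 10.45, 11.15, 10.52, 10.37 and 10.44 under canagliflozin, 10.50, 10.79, 11.10, 10.48 and 10.65 under caloric restriction and 10.97, 11.16, 10.41 and 11.06 in HFD controls. Canagliflozin replicate 2 stood above the other drug-treated arrays and HFD control replicate 3 below the other controls, so the groups overlapped. The remaining 6 genes, Ces1c, Ces1d, Ces1e, Ces1f, Ces2a and Ces3a, had log2 fold changes between -0.17 and -0.03. Ces3a, the other Ces3 member, measured 12.58, 12.91, 12.91, 12.70 and 12.67 under canagliflozin, 12.77, 12.89, 12.83, 12.81 and 12.70 under caloric restriction and 12.71, 12.79, 12.88 and 12.98 in HFD controls. Its groups overlapped throughout.

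Under caloric restriction against HFD controls the family was mixed, with 5 of 9 means higher and 4 lower, where 50.5% of all genes had higher and 49.5% lower means. Its median log2 fold change was 0.07, and 0 of 9 genes passed the threshold or had an unadjusted p under 0.05 (0% and 3.93% of all genes). Ces1g differed by 0.34 ± 0.22 (SE) and Ces2a by 0.21 ± 0.11 and Ces3b by -0.20 ± 0.18. These values moved with single controls. Ces1g was 0.10 without HFD control replicate 1, Ces2a was 0.12 without HFD control replicate 3, and Ces3b was -0.36 without replicate 3 and -0.11 without replicate 2. Ces1d, at 0.17 ± 0.17, was 0.06 without HFD control replicate 1 and 0.30 without replicate 4. The intervals allow sizeable effects, upward for Ces1g (-0.13 to 0.81) and downward for Ces3b (-0.57 to 0.17). This comparison shares its controls with that of canagliflozin against HFD control. A moderated F test over the 3 groups gave Ces1g the smallest p of the family (limma adjusted p = 0.782), followed by Ces2a (limma adjusted p = 0.851). An unadjusted p under 0.05 in that test was reached by these 2 members and by 5.60% of all genes, and 0% passed after adjustment.

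**Figure D2:**
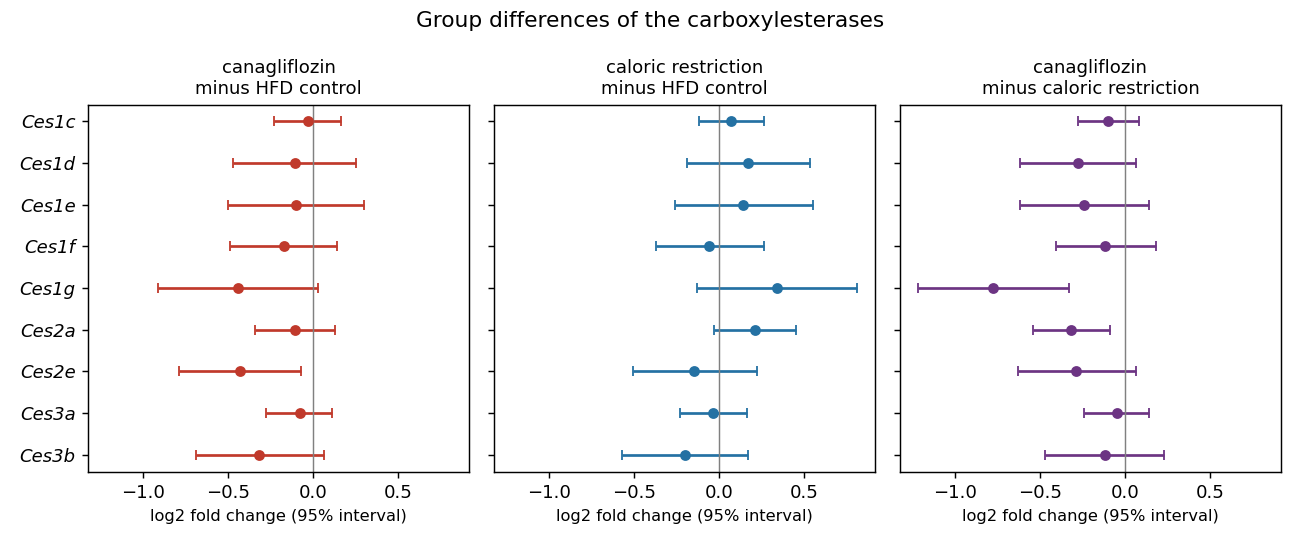
Log2 fold change of each carboxylesterase (points) with its 95% interval from limma (bars) for canagliflozin minus HFD control, caloric restriction minus HFD control and canagliflozin minus caloric restriction. The intervals of Ces1g and Ces2a in the comparison of both treated groups and of Ces2e against HFD controls lie below 0, before adjustment over genes.

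The Ces1 genes varied together from array to array within groups. Canagliflozin replicate 1 had the lowest value of its group for all 5 Ces1 members (Ces1c, Ces1d, Ces1e, Ces1f and Ces1g), and so did HFD control replicate 1. Canagliflozin replicate 3 had the highest of its group for the same 5. Averaged over the 5 genes, each centred on its mean of all arrays, the canagliflozin arrays stood at -0.46, -0.11, 0.21, -0.24 and -0.18. The restricted arrays stood at 0.35, 0.06, -0.13, 0.24 and 0.22, and the HFD controls at -0.47, 0.06, 0.20 and 0.26. The HFD controls overlapped both treated groups, and HFD control replicate 1 was as low as canagliflozin replicate 1.

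Ces1e measured 8.18, 8.52, 8.85, 8.22 and 8.27 under canagliflozin, 8.91, 8.64, 8.23, 8.68 and 8.78 under caloric restriction and 7.81, 8.68, 8.81 and 8.72 in HFD controls. The log2 fold change of Ces1e between canagliflozin and controls was -0.10 with all arrays and -0.33 without HFD control replicate 1. Ces1f, a microsomal triacylglycerol hydrolase related to Ces1d, measured 9.72 on that array and between 10.36 and 10.50 in the other controls. Ces1c, which encodes the esterase that mouse liver secretes into plasma, had the smallest SD of the 5 in every group, with 12.36 to 12.75 under canagliflozin, 12.64 to 12.72 under restriction and 12.42 to 12.70 in HFD controls. Ces1d ranged from 8.48 to 9.28, from 8.79 to 9.42 and from 8.67 to 9.38 in the same groups.

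**Figure D3:**
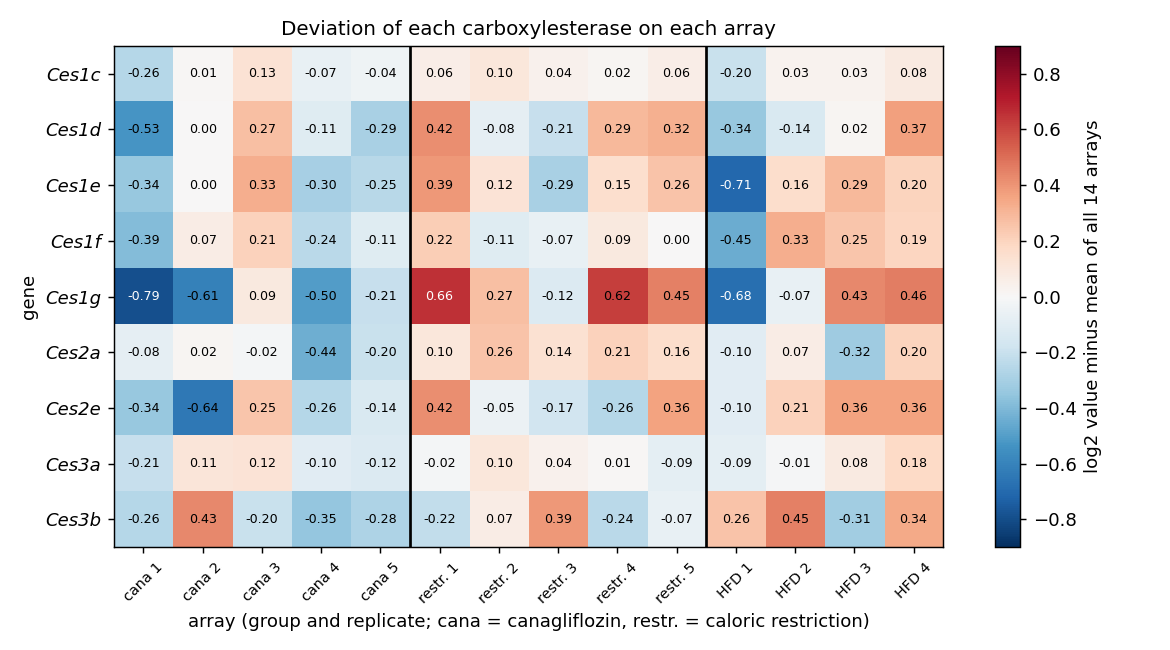
Log2 value of each carboxylesterase on each array minus its mean over all 14 arrays, with canagliflozin arrays left, caloric restriction arrays in the middle and HFD control arrays right. Ces1c to Ces1g are all below their mean in canagliflozin replicate 1 and HFD control replicate 1, and Ces3b follows another order.

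With group means removed, the 10 pairs of Ces1 members had Pearson correlations from 0.69 to 0.90 over 14 arrays, with a median of 0.78. The highest was between Ces1e and Ces1f. The median was 0.72 without HFD control replicate 1, and 0.62, with a range of 0.40 to 0.78, when canagliflozin replicate 1 was left out as well. Pairs across subfamilies had a median of 0.34 and ranged from -0.48 to 0.82. Ces2e varied with Ces1g (0.70), whereas Ces2a did not vary with Ces2e (-0.08) although both belong to the same block of genes. Ces3a followed Ces1c (0.82), and Ces3b followed Ces2a (0.62) and ran against Ces1g (-0.48). These are descriptions over points that share an array and a normalisation. The share of all gene pairs with correlations as high was not computed, so they are not shown to be particular to Ces1. Paralogous transcripts are alike in sequence, so probes may also share signal, and single values of the Ces1 genes are uncertain to that extent.

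**Figure D4:**
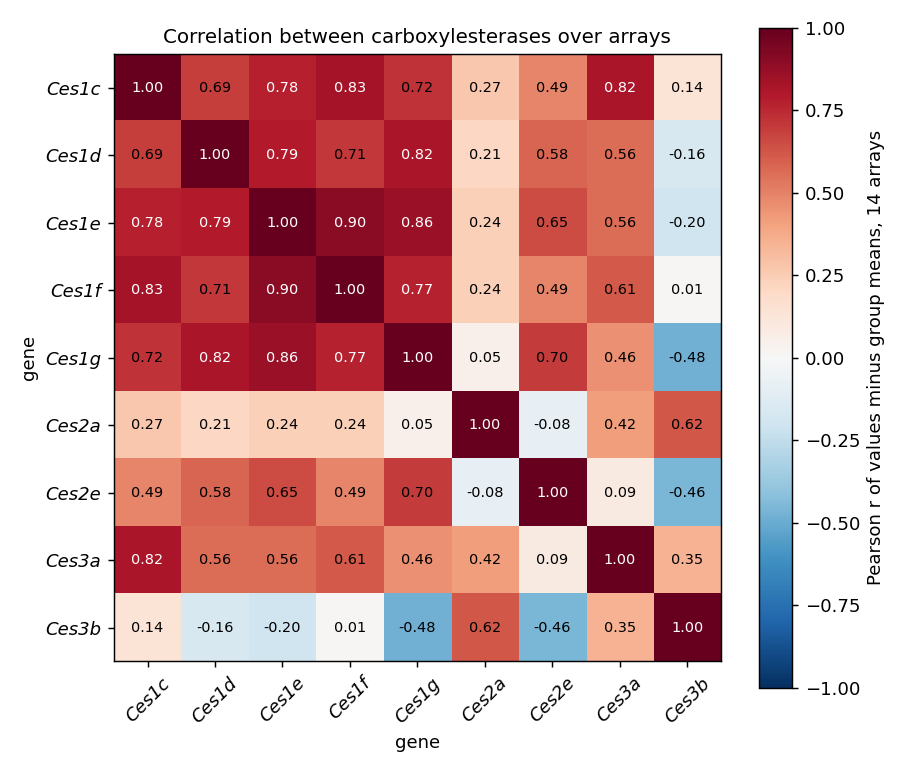
Pearson correlation between carboxylesterases over 14 arrays after the group means were removed, written in each cell and coloured from -1 (blue) to 1 (red). The Ces1 members form a square with values of 0.69 or more, and Ces2a and Ces3b stand outside it.

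The promoters of Ces1 members are shown because these genes varied together. RefSeq promoters were given for 7 of the 10 genes, but not for Ces1d, Ces1f and Ces3a. The 250 bases before the annotated start are printed for 3 Ces1 genes, 5′ to 3′ on the strand of the gene. Capitals mark TTATGTAA, the letters of the D-box bound by circadian PAR bZIP factors.
Ces1c promoter (GRCm38.p6, chr8:93131284-93131533, minus strand): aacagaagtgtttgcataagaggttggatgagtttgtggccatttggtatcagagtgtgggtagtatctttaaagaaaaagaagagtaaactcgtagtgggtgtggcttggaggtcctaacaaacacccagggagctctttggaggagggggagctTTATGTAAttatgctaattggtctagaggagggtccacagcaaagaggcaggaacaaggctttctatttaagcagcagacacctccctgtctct
Ces1e promoter (GRCm38.p6, chr8:93229620-93229869, minus strand): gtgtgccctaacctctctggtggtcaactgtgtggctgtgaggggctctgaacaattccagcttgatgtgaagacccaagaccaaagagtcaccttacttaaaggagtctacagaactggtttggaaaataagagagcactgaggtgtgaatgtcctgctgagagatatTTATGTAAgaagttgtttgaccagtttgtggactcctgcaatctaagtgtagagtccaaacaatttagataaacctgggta
Ces1g promoter (GRCm38.p6, chr8:93337210-93337459, minus strand): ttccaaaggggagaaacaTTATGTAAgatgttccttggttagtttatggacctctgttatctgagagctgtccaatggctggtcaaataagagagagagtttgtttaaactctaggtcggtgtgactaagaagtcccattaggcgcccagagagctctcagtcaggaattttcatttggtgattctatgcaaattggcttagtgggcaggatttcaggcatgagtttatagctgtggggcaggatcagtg
The 8 letters were picked after the sequences were seen and were searched on both strands. They begin 94 bases before the start in Ces1c, 81 in Ces1e and 232 in Ces1g. Among 6 Ces1 genes with a RefSeq promoter, 5 hold them, Ces1a and Ces1b included, and 0.819% of all 32851 promoter windows of that length do. The windows of Ces1b and Ces1c share an identical stretch of 58 bases. Ces1b encodes another Ces1 enzyme, and measured 7.42, 8.13, 7.61, 7.81 and 7.65 under canagliflozin, 7.96, 8.18, 7.50, 7.88 and 7.81 under restriction and 7.60, 7.43, 7.81 and 7.64 in HFD controls. Like the 5 members it was lowest in canagliflozin replicate 1, but neither highest in canagliflozin replicate 3 nor lowest in HFD control replicate 1. A match describes the letters only.

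The Ces2 promoters are shown beside them because Ces2a had an unadjusted p under 0.05 against restriction and Ces2e against HFD controls. Capitals mark ACTTTGCCC, also picked after the sequences were seen and searched on both strands.
Ces2a promoter (GRCm38.p6, chr8:104733753-104734002, plus strand): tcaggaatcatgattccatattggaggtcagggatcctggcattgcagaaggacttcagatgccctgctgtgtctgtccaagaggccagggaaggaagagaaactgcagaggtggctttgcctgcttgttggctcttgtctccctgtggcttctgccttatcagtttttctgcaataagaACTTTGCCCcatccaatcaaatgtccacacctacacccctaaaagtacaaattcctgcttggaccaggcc
Ces2e promoter (GRCm38.p6, chr8:104926010-104926259, plus strand): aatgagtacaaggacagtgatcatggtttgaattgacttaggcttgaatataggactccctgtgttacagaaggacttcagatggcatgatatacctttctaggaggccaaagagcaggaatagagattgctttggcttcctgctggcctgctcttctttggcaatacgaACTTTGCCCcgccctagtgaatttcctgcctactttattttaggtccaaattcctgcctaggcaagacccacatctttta
These letters begin 70 bases before the start in Ces2a and 80 in Ces2e. They occur in 4 of 6 Ces2 genes with a RefSeq promoter, the other two being Ces2f and Ces2g, and in 0.222% of all windows. The longest stretch that Ces2a and Ces2e share is 17 bases.

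Outside the 10 genes, 9 further carboxylesterase genes were measured, and 0 of 9 passed the threshold in any comparison. Under canagliflozin, 4 had higher and 5 lower means than in HFD controls, and 1 had a higher and 8 lower means than under restriction. Over all genes, 50.3% and 51.0% had lower means. Ces1b differed by 0.10 ± 0.14 (SE) from HFD controls under canagliflozin and by -0.14 ± 0.14 from restriction. Ces2g, a further gene of the Ces2 block, measured 7.17, 7.07, 7.95, 7.42 and 7.39 under canagliflozin, 7.75, 7.51, 7.74, 7.83 and 7.80 under caloric restriction and 7.60, 7.39, 7.98 and 8.33 in HFD controls. Its log2 fold change under canagliflozin was -0.42 ± 0.18 against HFD controls (SE, limma adjusted p = 0.737) and -0.33 ± 0.17 against restriction (adjusted p = 0.828). The groups overlapped in both, against restriction through canagliflozin replicate 3 alone. Ces1a, Ces1h, Ces2f and Ces5a stayed under the array medians in every group.

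Enzymes and regulators around the family were described from lists. Of 16 measured other lipid ester hydrolases, 8 had higher and 8 lower means under canagliflozin than in HFD controls, with a median log2 fold change of 0. Abhd6, a monoacylglycerol hydrolase, differed by 0.39 ± 0.14 (SE) and Pnpla2, the adipose triglyceride lipase, by 0.47 ± 0.21. Their sign is opposite to that of the carboxylesterases, but these 2 genes had the smallest p of the list, and 0 of 16 passed the threshold. Abhd6 was also higher under restriction than in HFD controls, by 0.26 ± 0.14. Of 11 measured VLDL assembly genes, 10 had lower means under canagliflozin than under restriction (median -0.08), where 51.0% of all genes did. Among them Apoc3, an inhibitor of lipoprotein clearance, differed by -0.22 ± 0.08 and Dgat2, which makes triglyceride, by -0.16 ± 0.08. Gusb, which encodes the β-glucuronidase held by egasyn, differed by 0.18 ± 0.09. Against HFD controls, 8 of the 11 VLDL assembly genes had lower means under canagliflozin and 8 under restriction (medians -0.06 and -0.02). Over all genes, 50.3% and 49.5% did.

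Of 12 measured CAR and PXR target enzymes, 10 had lower means under canagliflozin than under restriction and 10 had higher means under restriction than in HFD controls, with medians of -0.14 and 0.13. Over all genes 51.0% and 50.5% did so, and both counts use the same restricted arrays. Against HFD controls, canagliflozin gave 5 higher and 7 lower means of these enzymes, with a median of -0.04. Cyp2c55, a cytochrome P450 induced through both receptors, averaged 5.42 under canagliflozin, 6.09 under restriction and 6.03 in HFD controls, a log2 fold change of -0.67 ± 0.20 (SE) against restriction (limma adjusted p = 0.683). Of 15 regulators of carboxylesterase transcription, 12 had lower means under canagliflozin than under restriction (median -0.07), where 51.0% of all genes did. Nr0b2, which encodes the repressor SHP, differed by -0.54 ± 0.25 and Srebf1, which encodes SREBP-1, by -0.50 ± 0.23. Cebpa, a hepatocyte transcription factor gene, differed by -0.38 ± 0.14 between canagliflozin and HFD controls. Of the 18 lists beside the members, marker lists included, 0 genes passed the threshold in any comparison. The largest number with an unadjusted p under 0.05 in any list and direction was 3, the regulators lower under canagliflozin than in HFD controls. That was 3 of 15 regulators, where 3.30% of all genes were so, and it was picked as the highest of many such counts.

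The genes whose values were most like the mean of the 9 carboxylesterases over the 14 arrays were Akr1d1 (Pearson r = 0.91, Spearman rho = 0.87), Slc16a12 (r = 0.88, rho = 0.85) and Gpd1l (r = 0.88, rho = 0.86). They were picked as the highest of all genes outside the family, so the coefficients are descriptions. Group differences were left in here, unlike in the correlations between members above. Akr1d1, the steroid 5β-reductase of bile acid synthesis, averaged 9.22 under canagliflozin, 9.54 under restriction and 9.42 in HFD controls.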

How the data were processed

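RNA of 14 hepatic samples, 250 ng each per the labels, was hybridised to 1 Affymetrix array per sample. The values are log2 intensities that the authors deposited after RMA (Expression Console is the program in the submitters' processing notes). This step subtracts background, gives all arrays 1 distribution and combines probes, so a change in total RNA would not be seen. Of 41345 probe sets, 23521 carried 1 gene symbol, 1814 several and 16010 none. The brightest probe set by mean stood for each of 22180 genes, with no filter.

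Groups came from the sample labels. A limma model (version 3.58.1, R 4.3.3) estimated 3 group means with moderated variances, and p values were adjusted over all genes per comparison. The code was tested on simulated data. Precision is limited by the number of arrays, since arrays carry no read depth. Alternatives covered probe sets, filters, centring, variance models, single arrays and array order.

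The members and 18 other lists were chosen with earlier results of these data known. Named genes were the members, up to 3 genes of smallest p per list and comparison, and the 3 genes most like the family mean. Ces1b, Ces2d-ps, the dim family genes, the markers named for their level, the promoter letters and the arrays left out of correlations were picked after the data were seen. Sequences came from RefSeq (GRCm38.p6). The 1 gene past the threshold for canagliflozin against restriction is not reported here by name.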

Additional observations from a re-analysis of the deposited data

Results flagged for a closer look

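In HFD control replicate 1 Ces1e measured 7.81, far from the other controls, the nearest of which was 8.68. That gap was 0.869 of the group's range. In canagliflozin replicate 2 Ces3b measured 11.15, and the nearest drug-treated array was 10.52, a gap of 0.799 of the range. Among 27 sets of values, 9 genes in 3 groups, these 2 stood out by that measure, and chance flags about 1 in 20.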

How the results depend on the processing

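Each comparison was refitted or read again under 26 other settings, 14 of which left out 1 array. No carboxylesterase passed the threshold in any of them, and 695 of 702 log2 fold changes of single members kept their sign. Many of these signs could not turn. Filters, trended variance, probe-set choices, fits of only the groups compared and the other threshold leave a member's log2 fold change as it was. Leaving out an array of a group outside the comparison does so too. The numbers of genes passing over the whole table were small and moved with single arrays. For canagliflozin against HFD control, 0 genes passed with all arrays and 0 to 12 with 1 array left out, the most without canagliflozin replicate 3. For canagliflozin against restriction it was 1 gene, and 0 to 16 with 1 array left out, again the most without canagliflozin replicate 3. For the F test it was 0, and 0 to 19, likewise. For restriction against HFD control it was 0 throughout these.

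With genes of a mean log2 of at least 5, 1 gene passed for canagliflozin against HFD control and 1 in the F test. With a mean of at least 6, it was 1 for canagliflozin against HFD control and 0 for canagliflozin against restriction. The last count was also 0 with only the 2 groups compared and with every probe set on its own. With the deposited order as a covariate, 1 gene passed in each of canagliflozin against HFD control, restriction against HFD control and the F test. At an adjusted p of 0.1, 1 gene passed in the F test. The cause was not tested. With the replicate number as a block, 2 genes passed for canagliflozin against restriction, and no carboxylesterase did. Same-numbered arrays correlated in their deviations from group means from 0.04 to 0.20 (canagliflozin and HFD), -0.09 to 0.09 (restriction and HFD) and -0.01 to 0.16 (canagliflozin and restriction). In this order, 3 of 4, 2 of 4 and 3 of 5 correlated best with their own number, among 4, 4 and 5 candidate arrays. Restriction replicate 2 was counted on a tie at 0.01 with HFD control replicates 2, 3 and 4.

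With 1 array left out, the sign turned for small differences. Against HFD control under canagliflozin, Ces1c ranged from -0.09 to 0.02, Ces1d from -0.22 to 0.02 and Ces1e from -0.33 to 0. Under restriction, Ces1e ranged from -0.09 to 0.25, Ces1f from -0.23 to 0.03 and Ces3a from -0.08 to 0.01. The number of members with a lower mean under restriction than in HFD controls ranged from 3 to 5. Differences between canagliflozin and restriction kept their sign in all 9 genes, with Ces1g from -0.90 to -0.68 and Ces2a from -0.36 to -0.24.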

Other observations

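Ces2d-ps, a transcribed pseudogene of the Ces2 block that was on no list, measured 4.77, 4.74, 4.94, 4.95 and 4.50 under canagliflozin, 4.73, 4.26, 5.07, 4.81 and 4.81 under caloric restriction and 5.08, 5.07, 4.99 and 4.97 in HFD controls. All 5 drug-treated arrays lay below all 4 controls, which held for 0.965% of all genes in that direction, and 4 of 5 restricted arrays did. The log2 fold change under canagliflozin was -0.25 ± 0.13 (SE, limma adjusted p = 0.796) and that under restriction -0.29 ± 0.13 (adjusted p = 0.999). The gene was singled out after its values were seen, and a pseudogene can share probe signal with its coding neighbours.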
